A study of Rattus norvegicus with 70 samples.

Results

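The comparison described here set the ovaries of 3 rats exposed to a mixture of bisphenol A, bisphenol S and bisphenol F (Mix) against the ovaries of 3 rats given vehicle. The 6 libraries were chosen by their labels from the 70 libraries of the series, which also holds liver, kidney, thyroid and testis. All were Sprague-Dawley rats, killed on postnatal day 63 after exposure that began before birth. Dams received the test substance by mouth between gestational day 6 and day 6 of lactation, at 500 mg/kg/day in all for Mix, made up of 160 mg/kg/day bisphenol A, 160 mg/kg/day bisphenol F and 180 mg/kg/day bisphenol S. Litters were reduced on postnatal day 4 to 3 pups of each sex, and the pups themselves were dosed from postnatal day 7 until day 63 with the substance their dam had received, at 250 mg/kg/day. Vehicle dams and pups followed the same schedule without bisphenol, and the labels do not name the vehicle. A further group of 3 ovaries came from rats given bisphenol A alone (BPA), whose dams received 500 mg/kg/day and who received 250 mg/kg/day themselves, so that the summed dose equalled that of Mix. The labels give no litter, stage of the oestrous cycle or time of collection, so rats may share a litter, and a difference between litters or cycle stages cannot be told apart from one between treatments.

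The ovary makes its steroids in cooperating cell types. Theca cells, driven by luteinising hormone (LH), turn cholesterol into androgens through Cyp17a1, granulosa cells turn androgens into oestrogens through aromatase (Cyp19a1), and the corpora lutea that form after ovulation make progesterone, which in the rat depends on prolactin. Bisphenols are industrial phenols best known for binding oestrogen receptors weakly, and for effects on steroid hormone production in gonads.

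The 6 libraries held between 6248390 and 7815011 counts. They were made from the 3′ ends of polyadenylated transcripts in total RNA of whole ovary, so fewer cells of a type and less RNA per cell cannot be told apart. Values below are normalised counts in CPM, the count of a gene relative to all counts of the library after TMM scaling, given for rats 1, 2 and 3 of a group in that order. They can be compared between libraries but not between genes. Among transcripts that mark the ovary, Inha, the inhibin alpha subunit, lay in all 9 ovary libraries between 708 and 2182 CPM of all counts against 11.4 or less in liver, kidney and thyroid of rats of the same sex. Vehicle rats 1 and 2 stood apart in another respect. The 18 testis germ cell transcripts listed summed to 443, 867 and 13.3 CPM in the vehicle libraries against 24.3, 60.8 and 22.7 in Mix. Hepatocyte transcripts summed to 443, 656 and 180.3 in vehicle and to 322, 97.4 and 119 in Mix, and albumin (Alb) alone to 145, 232 and 2.12 in vehicle and 61.0, 1.98 and 9.74 in Mix. Ribosomal RNA took 24.6 ± 4.39% of counts in vehicle and 21.5 ± 2.63% in Mix (SD, n = 3), and the groups overlapped (exact two-sided permutation test, p = 0.5, where 0.1 is the smallest p that 3 against 3 allows).

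In the ovary, Mix rats carried far more of the transcripts of the theca androgen enzyme Cyp17a1, of the LH receptor and of aromatase than vehicle rats, and less of the transcripts of ribosomal proteins and respiratory chain subunits. Of 10871 genes tested with edgeR's quasi-likelihood test, 991 (9.12%) passed an adjusted p of 0.05 (Benjamini-Hochberg), 449 higher in Mix (4.13%) and 542 lower (4.99%). These shares are the background for each gene list below. The change was at least 2-fold in 362 of the 991. The median log2 fold change of all genes tested was 0.01, which TMM scaling centres near 0. Single libraries weighed on the total, which was 263 without Mix rat 1, 275 without vehicle rat 2, 351 without Mix rat 3 and 164 without both vehicle rats 1 and 2. Of 120 genes that the rules of choice picked and that passed, 48 passed whichever of the 9 libraries was left out and 31 passed without both vehicle rats 1 and 2.

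Cyp17a1 is the enzyme that opens the route from progesterone to androgens. Among called genes with a gene symbol, separated groups and a mean log2 CPM of at least 2, it showed the largest rise. It stood at 5.13, 3.13 and 1.80 CPM in the vehicle rats and at 125.9, 124 and 265 in the Mix rats. Every Mix value lay far above every vehicle value, and the fitted difference was 50.5-fold (log2 5.66 ± 0.52, standard error of the fit here and below, n = 3 per group, adjusted p = 0.000306, edgeR). Aromatase (Cyp19a1), which turns androgens into oestrogens, stood at 9.95, 8.65 and 3.10 in vehicle and 48.3, 19.8 and 33.8 in Mix. The groups did not overlap, and the rise was 4.69-fold (log2 2.23 ± 0.41, adjusted p = 0.00839). Hsd17b7, an enzyme that acts both on oestrone and in cholesterol synthesis, was nearly constant in vehicle at 4.07, 4.23 and 4.24, against 23.4, 18.6 and 29.5 in Mix. Its rise was 5.68-fold (log2 2.50 ± 0.28, adjusted p = 0.000844). All 3 of these genes passed whichever library was left out, and in the fit without vehicle rats 1 and 2 the list still had 3 members higher and none lower.

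These 3 were the members that rose among 11 tested steroid synthesis enzymes and cofactors, and none fell. The list's median log2 fold change was 0.38, against 0.01 over all genes. The enzymes that start the pathway had positive values that missed the threshold. Cyp11a1, which cuts the side chain of cholesterol in mitochondria, had 339.8, 427 and 410.2 CPM in vehicle and 631, 661 and 467 in Mix (log2 0.58 ± 0.19, adjusted p = 0.0773). Hsd3b1, which makes progesterone, had 8578, 7468 and 6970.1 in vehicle and 11234, 9758 and 11470.0 in Mix (log2 0.50 ± 0.15, adjusted p = 0.0549). In both genes every Mix value was above every vehicle value, as it was in 14.7% of all genes tested. A near-identical copy, Hsd3b6, may share reads with Hsd3b1. Hsd17b1, the granulosa enzyme that makes oestradiol, overlapped between groups, at 95.1, 73.4 and 96.4 in vehicle and 68.8, 130.0 and 89.4 in Mix (log2 0.12 ± 0.28, adjusted p = 0.834). The plot of steroid synthesis and receptor transcripts shows each library.

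**Figure D1:**
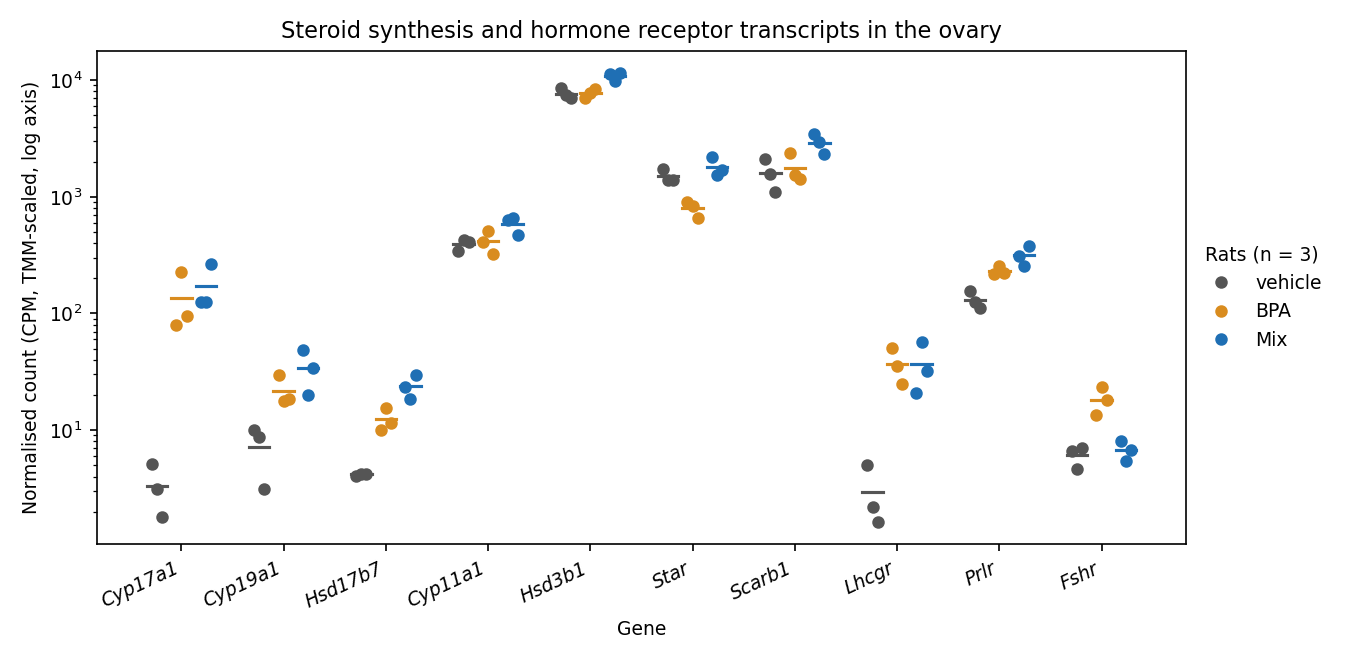
Each point is 1 rat's normalised count (CPM, log axis) in the ovary and each bar the mean of the 3 rats of a group, for 7 genes of steroid synthesis and cholesterol supply and 3 hormone receptors (x axis). Cyp17a1, Cyp19a1, Hsd17b7, Lhcgr and Prlr are higher in all 3 Mix rats than in any vehicle rat, and Star and Fshr overlap between Mix and vehicle.

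Genes that supply cholesterol to this pathway had 1 lower member of 12 tested and none higher, with a median log2 of 0.09. Of the 12, 6 had positive values. Their summed level, without TMM scaling, was 6154, 4247 and 4091 CPM of all counts in vehicle and 8708, 6398 and 6244 in Mix. The ratio of means was 1.47, without overlap in this unscaled measure (exact two-sided permutation test, p = 0.1, the smallest that 3 against 3 allows). TMM factors lay between 0.837 and 0.985 in vehicle and between 0.970 and 1.06 in Mix. Scaling would therefore narrow this gap, and the scaled sums were not compared. Star, which carries cholesterol into mitochondria, overlapped at 1721, 1396 and 1382 CPM in vehicle and 2194, 1532 and 1696 in Mix (log2 0.27 ± 0.18, adjusted p = 0.383). Scarb1, the receptor that takes up cholesterol from high-density lipoprotein, had 2107, 1572 and 1105 in vehicle and 3441, 2922 and 2339 in Mix, with no overlap (log2 0.86 ± 0.25, adjusted p = 0.0519). Tspo, a protein of the outer mitochondrial membrane, fell (log2 -0.70 ± 0.17, adjusted p = 0.0256), a call that was lost without vehicle rat 2 or 3 or Mix rat 1 or 3 (largest adjusted p 0.117).

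Among 10 tested enzymes that inactivate or interconvert steroids, 1 rose and 2 fell. Srd5a1, the reductase that turns progesterone and testosterone into reduced steroids, had 77.5, 70.7 and 52.7 CPM in vehicle and 19.9, 22.7 and 21.1 in Mix. It fell in every Mix rat relative to every vehicle rat, to 0.317 of the vehicle level (log2 -1.66 ± 0.23, adjusted p = 0.0022), whichever library was left out. Sts, the sulfatase that frees steroids from their sulfates, rose 3.03-fold, from 5.28, 4.05 and 5.06 in vehicle to 18.3, 12.9 and 12.5 in Mix (log2 1.60 ± 0.30, adjusted p = 0.00909), and missed the threshold without Mix rat 1 (adjusted p 0.0549). Hsd17b2, which oxidises oestradiol to oestrone, fell at low counts, from 6.18, 3.50 and 5.39 to 1.04, 0.660 and 1.12 (log2 -2.41 ± 0.69, adjusted p = 0.0477). That call passed in 1 of 9 fits with a library left out (largest adjusted p 0.131). Akr1c3, under which the table lists the dehydrogenase that inactivates progesterone in the rat corpus luteum, overlapped at 10235, 8099 and 10953 in vehicle and 8003, 5271 and 9085 in Mix (log2 -0.39 ± 0.23, adjusted p = 0.329). It belongs to a family of similar genes among which reads may be split.

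Of 7 tested receptors for pituitary hormones and for other peptide hormones, such as insulin-like growth factor, 4 rose and none fell. Lhcgr, the receptor for LH on theca, luteal and mature granulosa cells, had 4.98, 2.21 and 1.63 CPM in vehicle and 20.8, 57.3 and 32.3 in Mix. The groups were well apart, with a rise of 12.3-fold (log2 3.62 ± 0.46, adjusted p = 0.00144). Prlr, the prolactin receptor that maintains the corpus luteum, had 157, 125 and 111.5 in vehicle and 313, 253 and 382 in Mix, a rise of 2.41-fold (log2 1.27 ± 0.18, adjusted p = 0.00225). Both passed whichever library was left out and were the 2 calls that held without vehicle rats 1 and 2. Igf1r, the receptor for insulin-like growth factor, rose 1.80-fold (log2 0.85 ± 0.23, adjusted p = 0.0369), and Gnrhr, the receptor for gonadotropin-releasing hormone, rose 1.45-fold (log2 0.54 ± 0.15, adjusted p = 0.0465). The calls of Igf1r and Gnrhr were lost without vehicle rat 2 or 3, BPA rat 2 or 3 or Mix rat 1 or 3 (and, for Gnrhr, without BPA rat 1), with largest adjusted p of 0.149 and 0.188. Fshr, the receptor for follicle-stimulating hormone on granulosa cells, overlapped between groups, at 6.63, 4.60 and 7.02 in vehicle and 8.05, 5.41 and 6.71 in Mix (log2 0.14 ± 0.32, adjusted p = 0.828).

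Receptors inside the cell showed fewer calls. Of 19 tested steroid and nuclear receptors none rose and 2 fell, with a median log2 of -0.02. Nr5a2, a regulator of granulosa and luteal steroid genes, had 50.2, 44.9 and 50.3 CPM in vehicle and 30.4, 33.7 and 28.3 in Mix, without overlap (log2 -0.65 ± 0.16, adjusted p = 0.0238). The other fall, in the oestrogen-related receptor Esrra (log2 -0.49 ± 0.14, adjusted p = 0.0483), was lost with any library left out (largest adjusted p 0.164), and that of Nr5a2 without any 1 of the vehicle rats or Mix rat 1 or 3 (largest 0.103). Esr2, the oestrogen receptor of granulosa cells, lay at 1.96, 2.94 and 4.08 in vehicle and 1.04, 1.19 and 0.798 in Mix (log2 -1.55 ± 0.63, adjusted p = 0.143). Esr1, Pgr and Nr5a1 held 20, 11 and 14 counts over the 9 ovary libraries and were too low to test.

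Markers of the ovary's cell types did not rise or fall together. Of 25 granulosa markers tested, 2 rose and 3 fell, with a median log2 of -0.09. Amh, the anti-Müllerian hormone of growing follicles, had 14.8, 13.4 and 12.2 CPM in vehicle and 15.2, 12.3 and 16.8 in Mix (log2 0.13 ± 0.20, adjusted p = 0.747). Inha overlapped at 1114, 1039 and 800.1 in vehicle and 942, 893 and 941 in Mix (log2 -0.09 ± 0.21, adjusted p = 0.838). The activin subunits Inhba and Inhbb also missed the threshold, at log2 0.73 ± 0.35 (adjusted p = 0.214) and -0.49 ± 0.25 (adjusted p = 0.232). Fst, the follistatin that binds activin, fell from 51.7, 56.7 and 73.8 to 32.8, 37.4 and 32.9 (log2 -0.82 ± 0.24, adjusted p = 0.0489). Dhh, the hedgehog ligand through which granulosa cells signal to theca, fell from 12.1, 22.5 and 11.6 to 1.69, 6.07 and 7.18 (log2 -1.63 ± 0.44, adjusted p = 0.0372). Neither fall held in every fit: Fst missed the threshold without BPA rat 2 or any 1 vehicle or Mix rat (largest adjusted p 0.155), and Dhh without vehicle rat 2, BPA rat 2 or 3 or Mix rat 1 or 3 (largest 0.15).

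Of 16 theca and stromal markers 3 rose, none fell and the median log2 was 0.38. Besides Cyp17a1 these were Aldh1a1, a retinal dehydrogenase, at 24.6, 35.9 and 51.6 CPM in vehicle and 109, 112.3 and 94.0 in Mix, and Ogn, a small proteoglycan, at 429, 513 and 495 and 729.5, 684 and 857. Aldh1a1 rose 2.82-fold (log2 1.49 ± 0.25, adjusted p = 0.00534), with no overlap and whichever library was left out. Ogn rose 1.58-fold (log2 0.66 ± 0.15, adjusted p = 0.0197), but not without vehicle rat 1 or 2 or Mix rat 3 (largest adjusted p 0.0843). Insl3, the peptide hormone of theca cells, did not pass (log2 -0.84 ± 0.65, adjusted p = 0.456). None of 12 tested oocyte genes passed in either direction, with a median log2 of 0.14, and the zona protein Zp3 had 9.05, 14.9 and 13.2 in vehicle and 13.2, 8.45 and 21.4 in Mix (log2 0.21 ± 0.32, adjusted p = 0.738).

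Of 22 luteal and prolactin response genes 3 rose and 1 fell. With Lhcgr and Prlr, Runx2 rose, a transcription factor induced in granulosa cells as they become luteal. It had 78.4, 52.3 and 67.1 CPM in vehicle and 204, 142 and 205 in Mix, a 2.78-fold difference without overlap (log2 1.48 ± 0.19, adjusted p = 0.00142). Sfrp4, a secreted Wnt antagonist of luteal cells, went the other way, from 96.3, 109 and 234 in vehicle to 23.6, 26.1 and 22.8 in Mix. It fell to 0.165 of the vehicle level (log2 -2.60 ± 0.35, adjusted p = 0.00185), and both calls held whichever library was left out. Sfrp4 was the only 1 of 22 tested Wnt and R-spondin genes past the threshold.

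Genes that the preovulatory LH surge is known to induce had more members lower than higher: of 18 tested, 5 fell and 1 rose, with a median log2 of -0.19. Runx1, a transcription factor of periovulatory granulosa cells, had 109, 108 and 66.1 CPM in vehicle and 24.4, 18.5 and 28.9 in Mix (log2 -1.98 ± 0.44, adjusted p = 0.0175). Plat, the tissue plasminogen activator, had 100.4, 70.7 and 189.6 in vehicle and 41.5, 36.6 and 34.8 in Mix (log2 -1.67 ± 0.38, adjusted p = 0.0183). In both genes every Mix rat lay below every vehicle rat. Rgs2, a brake on G protein signalling, and Timp1, an inhibitor of metalloproteinases, fell by 1.07 and 0.95 on the log2 scale (adjusted p = 0.0179 and 0.0143). The genes of cumulus expansion that could be tested, Tnfaip6 and Ptx3, had log2 values of -0.45 and 0.53 and did not pass. Runx1 was lost without vehicle rat 2 or Mix rat 1 (largest adjusted p 0.0681), and Plat without vehicle rat 3 or Mix rat 1 or 3 (largest 0.069). Rgs2 was lost without vehicle rat 2 or 3 or Mix rat 1, and Timp1 without vehicle rat 2 or Mix rat 3 (largest 0.0805 and 0.0626). Among the lower genes the number past the threshold was 2 without vehicle rat 2 or without Mix rat 1, 3 without vehicle rat 3 or Mix rat 3, and 1 without vehicle rats 1 and 2, where the median was 0.04.

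Genes of the transforming growth factor beta and bone morphogenetic protein family passed in both directions: of 32 tested, 4 rose and 3 fell. The ligand Tgfb2 stood at 6.94, 12.9 and 7.02 CPM in vehicle and 33.4, 23.9 and 23.2 in Mix, a rise of 3.02-fold (log2 1.59 ± 0.31, adjusted p = 0.0109). The receptor Bmpr2 rose from 43.4, 39.8 and 41.6 to 81.0, 71.9 and 104 (log2 1.04 ± 0.17, adjusted p = 0.00444). The target gene Id1, which bone morphogenetic proteins induce, rose from 68.6, 71.8 and 76.5 to 158, 136 and 155 (log2 1.05 ± 0.17, adjusted p = 0.00473). Tgfb2, Bmpr2 and Id1 each rose without overlap and whichever library was left out. Whether these 3 rises are linked was not tested. Of the 32 genes, 15 had positive values, and the median log2 was -0.11. Among the falls were Fst and Amhr2, the receptor for anti-Müllerian hormone (log2 -0.88 ± 0.20, adjusted p = 0.0197). Amhr2 was lost without vehicle rat 2 or Mix rat 1 or 3 (largest adjusted p 0.0891).

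Among the clearest separations of the groups was that of Igfbp4, a binding protein that holds insulin-like growth factor and marks follicles that stop growing. It had 358, 359 and 334 CPM in vehicle and 131, 131 and 144 in Mix, a fall to 0.385 of the vehicle level (log2 -1.38 ± 0.12, adjusted p = 0.000306) in every fit with a library left out. Of 15 tested genes of the insulin-like growth factor system, Igfbp4 was the 1 that fell and Igf1r the 1 that rose. Igf1 and Igf2 themselves had log2 values of -0.97 and 0.18 and did not pass. Among 17 oestrogen response genes 2 rose and 3 fell. Cited2, a transcriptional coactivator, fell from 505, 477 and 516 to 172, 244 and 214 (log2 -1.25 ± 0.15, adjusted p = 0.00116), also whichever library was left out.

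Cholesterol biosynthesis, from which steroid cells draw part of their substrate, had 6 of 23 tested genes higher and none lower, with a median log2 of 0.49, and 20 of the 23 were positive. Msmo1, which removes methyl groups from the sterol ring, had 272, 185 and 149 CPM in vehicle and 418, 502 and 507 in Mix (log2 1.24 ± 0.27, adjusted p = 0.0175). Hmgcs1, an early enzyme of the pathway, had 234, 200.99 and 160.4 and 369, 375 and 465 (log2 1.02 ± 0.24, adjusted p = 0.0202). All Mix values of both genes exceeded all vehicle values. Sc5d and Ebp, which act late in the pathway, rose by log2 1.14 and 1.00 (adjusted p = 0.0244 and 0.0384), and Hsd17b7, described above, is also a member. The number past the threshold depended on single libraries: 1 without vehicle rat 2, 2 without vehicle rat 3 or Mix rat 3, 3 without Mix rat 1, and 9 without vehicle rat 1. The median stayed between 0.37 and 0.77 in these fits. Hsd17b7 was the member that passed in all of them. Msmo1 was lost without vehicle rat 2 or 3 or Mix rat 3, and Hmgcs1 and Sc5d without any of these or Mix rat 1 (largest adjusted p 0.0825, 0.0797 and 0.115).

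The promoters of Hsd17b7 and Msmo1 are shown because these were the largest rises of the list and because sterol genes are known to be read by SREBP2 together with the factor NF-Y, which binds the letters CCAAT. The sequences are from RefSeq (build GRCr8), 5′ to 3′ along the gene, from 250 bases before to 50 after the annotated start, with CCAAT on either strand (ATTGG where on the other) in capitals.
Hsd17b7 (chr13:84722705.0-84723004.0, reverse strand): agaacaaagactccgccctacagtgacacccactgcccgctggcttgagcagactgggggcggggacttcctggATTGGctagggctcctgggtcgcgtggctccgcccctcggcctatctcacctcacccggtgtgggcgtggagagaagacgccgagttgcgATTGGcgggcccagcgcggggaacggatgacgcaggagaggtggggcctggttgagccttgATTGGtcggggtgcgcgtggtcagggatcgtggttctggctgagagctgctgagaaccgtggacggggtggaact
Msmo1 (chr16:29746863.0-29747162.0, forward strand): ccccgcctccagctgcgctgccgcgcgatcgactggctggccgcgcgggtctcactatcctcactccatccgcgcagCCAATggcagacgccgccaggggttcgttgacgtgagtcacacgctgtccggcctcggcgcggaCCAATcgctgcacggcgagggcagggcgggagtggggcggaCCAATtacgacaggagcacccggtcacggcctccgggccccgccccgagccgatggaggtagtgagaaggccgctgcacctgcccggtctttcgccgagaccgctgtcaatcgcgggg
Each of these windows held the letters 3 times. Of 33469 promoters of this length, 3.02% held them at least 3 times and 37.5% at least once. Hmgcs1 and Ebp held them 2 times and Sc5d 1 time. A match describes letters in the window and not binding.

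Ribosomal protein transcripts made up the largest group that fell. Of 79 tested, 34 (43.0%) fell and none rose, against 4.99% and 4.13% of all genes. The median log2 was -0.66, and all but 3 were negative. Rps21 had 425, 548 and 522 CPM in vehicle and 139, 230.2 and 188 in Mix (log2 -1.42 ± 0.21, adjusted p = 0.00298). Rpl17 had 713, 843 and 1066 in vehicle and 279, 399 and 356 in Mix (log2 -1.34 ± 0.20, adjusted p = 0.00298). Rps3, also a member of the small subunit, had 2122, 2768 and 2653 and 824, 1261 and 1122 (log2 -1.23 ± 0.19, adjusted p = 0.00374). In each the highest Mix value was below the lowest vehicle value, and these 3 passed whichever library was left out. Ribosomal protein genes have many processed copies in the genome, and the table repeats some of their symbols, so how reads were divided between a gene and its copies is uncertain. The count of lower genes was 6 without Mix rat 1, 7 without vehicle rat 2, 11 without Mix rat 3, 15 without vehicle rat 3 and 52 without vehicle rat 1. It was 12 without both vehicle rats 1 and 2, where the median was -0.90. Across all these fits the median stayed at -0.51 or lower. DESeq2 gave 60 lower members. Summed over the list, these transcripts made up 82099, 92465 and 110314 CPM of all counts in vehicle and 57032, 74923 and 68331 in Mix. The share of ribosomal RNA in each library is given above, and with that share as a covariate 24 members fell and none rose.

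Subunits of the respiratory chain and ATP synthase followed the same direction, with 25 of 73 lower (34.2%), none higher and a median log2 of -0.43. Atp5i, a small subunit of ATP synthase, had 656, 894 and 905 CPM in vehicle and 277, 447 and 366 in Mix (log2 -1.17 ± 0.19, adjusted p = 0.00444). Ndufa2, of complex I, had 403, 573 and 624 in vehicle and 193, 258 and 261 in Mix (log2 -1.17 ± 0.18, adjusted p = 0.00397). Cox4i1, of cytochrome c oxidase, had 379, 445 and 431 and 164, 278 and 200.4 (log2 -0.97 ± 0.18, adjusted p = 0.00825). These 3 did not overlap between groups and passed whichever library was left out. The members were not uniform: larger catalytic subunits such as Sdha, Ndufs1 and Atp5a1 had log2 values of 0.40, 0.40 and 0.12 and none of them passed. The count of lower subunits was 8 without Mix rat 1 or without Mix rat 3, 9 without vehicle rat 2, 15 without vehicle rat 3 and 12 without vehicle rats 1 and 2.

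Proteasome subunits had 8 of 30 lower, none higher and a median log2 of -0.19. Psmc3, an ATPase of the regulatory particle, fell from 312, 368 and 287 CPM to 143, 189 and 172 (log2 -0.94 ± 0.15, adjusted p = 0.00374) whichever library was left out. The count of lower subunits was 1 without vehicle rat 2, 2 without Mix rat 1 or without Mix rat 3, and 0 without vehicle rats 1 and 2. Of 29 genes of endoplasmic reticulum stress and the amino acid response 5 fell and none rose. Sdf2l1, a chaperone partner in the reticulum, had 143, 135 and 134 in vehicle and 40.6, 43.4 and 41.5 in Mix (log2 -1.71 ± 0.22, adjusted p = 0.00144), without overlap. The main chaperone Hspa5 did not pass (log2 -0.06 ± 0.20, adjusted p = 0.879). The count for this list was 1 without Mix rat 1 or without Mix rat 3 or without vehicle rats 1 and 2, 2 without vehicle rat 2 and 3 without vehicle rat 1 or BPA rat 2, and Sdf2l1 passed in each fit with 1 library left out.

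**Figure D2:**
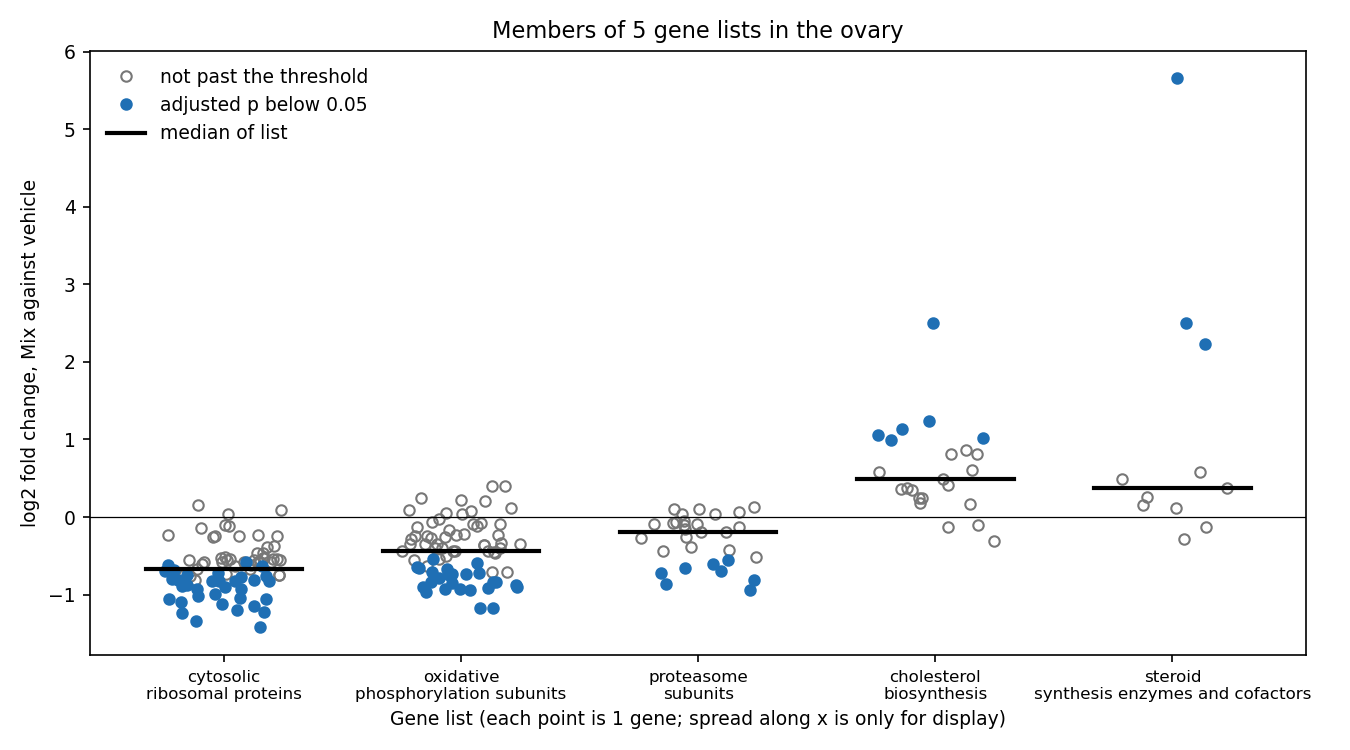
Each point is the log2 fold change of 1 gene, Mix against vehicle (y axis), in 5 gene lists (x axis), filled where the adjusted p was below 0.05, and black bars are list medians. Ribosomal proteins centre on -0.66, oxidative phosphorylation subunits on -0.43, proteasome subunits on -0.19, cholesterol biosynthesis on 0.49 and steroid synthesis on 0.38, with Cyp17a1 far above the rest at 5.66.

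Among 36 cell cycle genes 1 rose and 3 fell, with a median log2 of -0.27. The number lower was 10 without Mix rat 2, where the median was -0.59, and 0 without vehicle rat 2, Mix rat 1, Mix rat 3 or both vehicle rats 1 and 2. The proliferation marker Mki67 had a log2 of -0.19 (adjusted p = 0.619). Cdkn1b, the inhibitor of cyclin-dependent kinases that accumulates in luteal cells, had 112.8, 126.3 and 118 CPM in vehicle and 213, 177 and 181 in Mix. It rose 1.60-fold with no overlap (log2 0.68 ± 0.13, adjusted p = 0.00909) and whichever library was left out. The cyclin Ccnd2, which drives granulosa cell division, fell from 75.1, 73.1 and 57.8 to 42.8, 51.8 and 42.0 (log2 -0.59 ± 0.16, adjusted p = 0.0367), a call lost without vehicle rat 1 or 2 or Mix rat 1 or 3 (largest adjusted p 0.136). Of 18 apoptosis genes 3 fell, none rose and the median log2 was 0.04. They were Bax, which promotes cell death (log2 -1.21 ± 0.32, adjusted p = 0.0339), Bcl2l1, which opposes it (log2 -0.86 ± 0.23, adjusted p = 0.0372), and the receptor Tnfrsf1a (log2 -0.55 ± 0.15, adjusted p = 0.0343). All 3 calls were lost without vehicle rat 2 or 3 or Mix rat 1 or 3, among others, with largest adjusted p of 0.137, 0.122 and 0.146.

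The metallothioneins, small proteins that bind zinc and copper, rose strongly. Mt2A had 258, 226 and 378 CPM in vehicle and 1184, 1175 and 1375 in Mix, and Mt1a had 2649, 1904 and 2708 and 7814, 7141 and 9094. In both genes the lowest Mix rat was well above the highest vehicle rat. Mt2A rose 4.33-fold (log2 2.11 ± 0.32, adjusted p = 0.00332) and Mt1a 3.31-fold (log2 1.73 ± 0.23, adjusted p = 0.00156), whichever library was left out. They are similar in sequence and may share reads. Both stood in a list of 14 genes that glucocorticoids induce, of which 3 rose and 1 fell with a median log2 of -0.20. The other that rose was the kinase Sgk1 (log2 0.82 ± 0.20, adjusted p = 0.0235, lost without vehicle rat 2 or 3 or Mix rat 3, largest adjusted p 0.0919). Glucocorticoid targets used most often as markers, Fkbp5 and Tsc22d3, had log2 values of -0.34 and -0.27 and did not pass.

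Metallothionein genes are known to be switched on by zinc through the factor Mtf1, which binds metal response elements, and their promoters are shown for that reason. The core letters searched were TGCACNC and TGCGCNC on both strands, in capitals here, in the same RefSeq window and build as above, which lists Mt1a as Mt1.
Mt1a (chr19:10832926.0-10833225.0, reverse strand): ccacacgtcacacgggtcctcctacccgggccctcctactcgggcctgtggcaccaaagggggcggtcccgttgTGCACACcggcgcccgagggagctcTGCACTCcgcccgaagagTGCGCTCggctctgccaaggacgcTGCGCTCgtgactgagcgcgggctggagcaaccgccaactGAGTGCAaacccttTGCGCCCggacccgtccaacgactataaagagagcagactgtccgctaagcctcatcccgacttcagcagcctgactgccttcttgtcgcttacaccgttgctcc
Mt2A (chr19:10838659.0-10838958.0, reverse strand): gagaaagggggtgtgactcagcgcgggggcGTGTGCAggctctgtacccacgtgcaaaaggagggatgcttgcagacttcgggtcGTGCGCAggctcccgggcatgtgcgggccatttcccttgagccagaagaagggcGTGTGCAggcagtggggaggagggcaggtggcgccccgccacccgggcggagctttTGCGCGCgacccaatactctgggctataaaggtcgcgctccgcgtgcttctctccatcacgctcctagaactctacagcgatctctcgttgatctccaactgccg
The core occurred 6 times in the Mt1a window and 4 times in that of Mt2A. At least 1 occurrence was found in 24.2% of 33469 promoters, at least 4 in 0.439% and at least 6 in 0.0388%. The letters describe the promoters and say nothing about which factor acted in these rats.

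Detoxification genes split. Of 34 tested antioxidant and detoxification genes of the NRF2 list 4 rose and 3 fell, with a median log2 of 0.22. Ephx1, the microsomal epoxide hydrolase, had 32.9, 34.4 and 26.3 CPM in vehicle and 106, 98.7 and 174 in Mix, a 4.04-fold rise (log2 2.01 ± 0.24, adjusted p = 0.00116). The glutathione transferase Gsta2 had 5.73, 5.71 and 3.43 in vehicle and 17.9, 46.3 and 35.4 in Mix (log2 2.74 ± 0.37, adjusted p = 0.00185), and its relative Gsta5 had 1.21, 1.29 and 1.14 and 10.3, 24.6 and 17.1 (log2 3.82 ± 0.41, adjusted p = 0.000681). The 2 Gsta genes are close copies and may share reads. Gpx4, the peroxidase that protects membrane lipids, went down from 395, 537 and 431 to 173, 205 and 206 (log2 -1.22 ± 0.15, adjusted p = 0.00142). These 4 calls held whichever library was left out, and none of the 4 genes overlapped between groups. The NRF2 targets Nqo1, Hmox1 and Gclm had log2 values of 0.34, -0.39 and -0.43 and did not pass. Of 23 listed enzymes and receptors that handle bisphenols and other foreign compounds, 7 had enough counts to test in the ovary. Ugt1a1, which attaches glucuronic acid, was the 1 past the threshold, falling from 24.7, 23.9 and 28.7 to 13.9, 14.3 and 15.6 (log2 -0.82 ± 0.20, adjusted p = 0.0246, lost without vehicle rat 2 or 3 or Mix rat 1 or 3, largest adjusted p 0.0969).

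In lipid handling, Fabp3, a carrier of fatty acids inside cells, had 36.6, 47.9 and 46.5 CPM in vehicle and 136, 192 and 206 in Mix. Its 4.07-fold rise (log2 2.03 ± 0.20, adjusted p = 0.000547) held whichever library was left out. Acadl, which oxidises long-chain fatty acids, fell from 189.5, 168 and 154 to 89.2, 91.8 and 108 (log2 -0.82 ± 0.13, adjusted p = 0.00491), also in every such fit. Of 29 tested genes of fatty acid and triglyceride metabolism 3 rose and 1 fell.

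**Figure D3:**
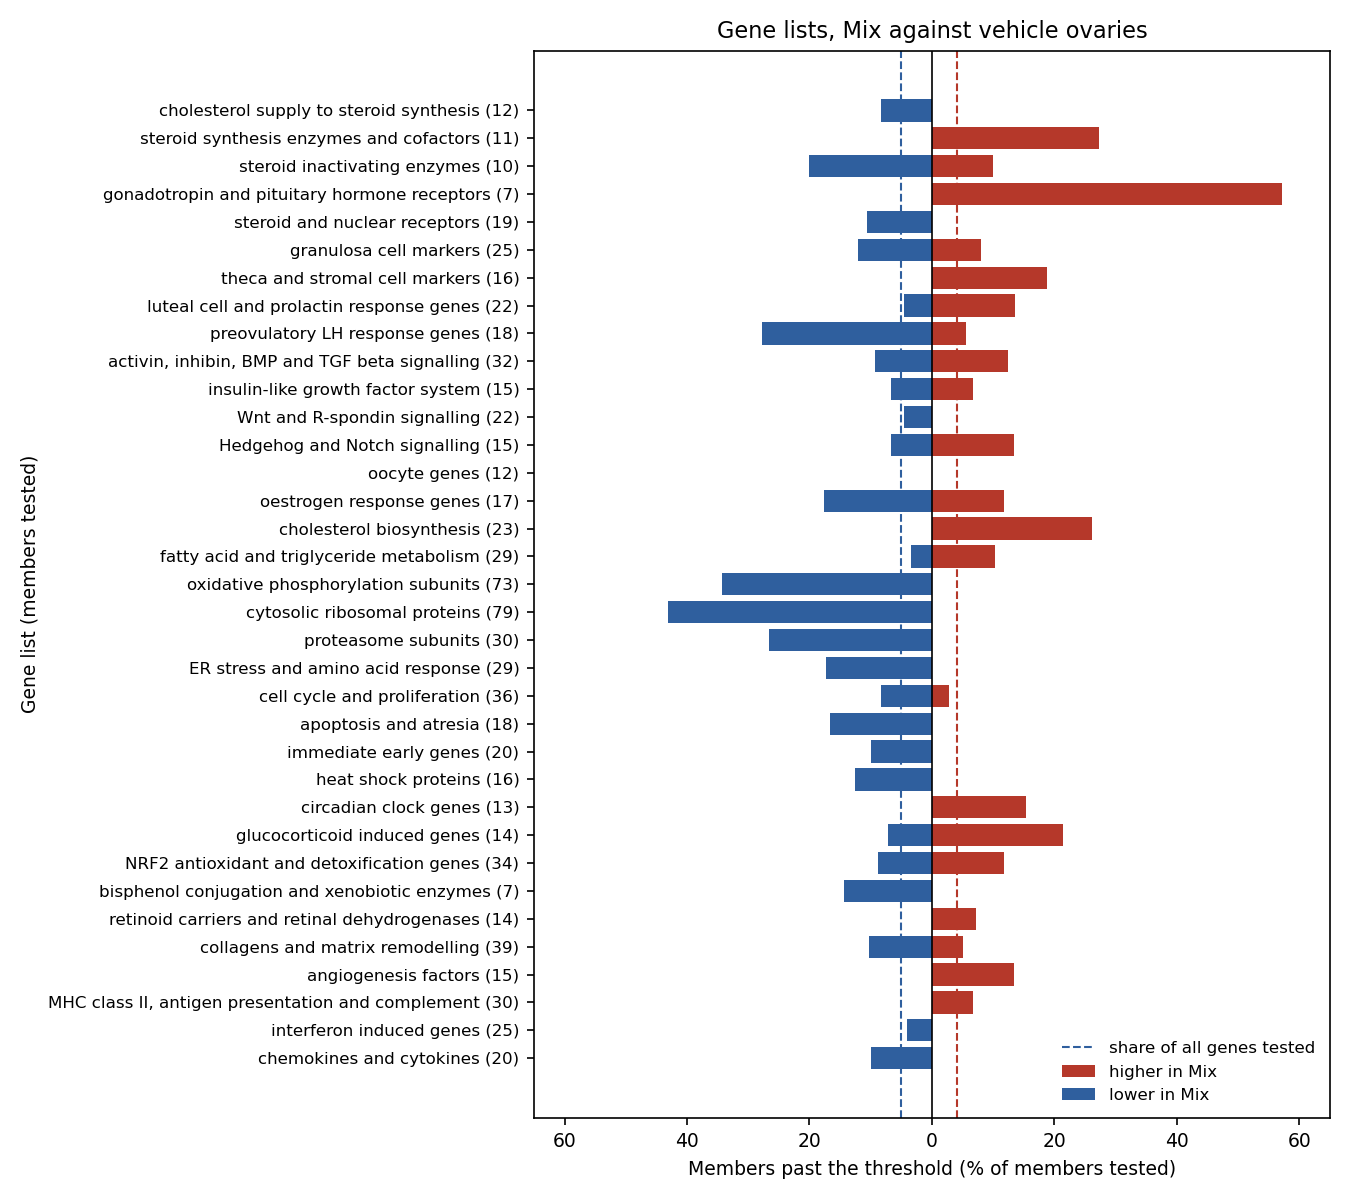
Bars give, for each gene list (y axis, members tested in brackets), the percentage of members past the adjusted threshold in Mix against vehicle, higher to the right in red and lower to the left in blue (x axis). Dashed lines mark the share of all genes tested, 4.13% higher and 4.99% lower, and the longest bars are those of the hormone receptors (4 of 7 higher) and ribosomal proteins (34 of 79 lower).

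Mural cell genes had more higher members than lower. Of 16 smooth muscle and pericyte markers 4 rose and none fell, and 10 had positive values. Cspg4, a proteoglycan of pericytes, had 3.92, 4.97 and 2.77 CPM in vehicle and 13.8, 12.7 and 13.3 in Mix, without overlap (log2 1.77 ± 0.31, adjusted p = 0.00658). Myh11, the myosin of smooth muscle, had 83.4, 109.5 and 187 in vehicle and 371, 255 and 272 in Mix (log2 1.24 ± 0.28, adjusted p = 0.0186). Angpt1, a vessel-stabilising ligand of such cells, had 14.9, 16.6 and 13.4 and 47.4, 34.1 and 44.9 (log2 1.49 ± 0.19, adjusted p = 0.00144). It is from another list, the angiogenesis factors, of which 2 of 15 rose (13.3%) and none fell. Cspg4 and Angpt1 passed whichever library was left out, while Myh11 was lost without vehicle rat 1 or 2 or Mix rat 1 (largest adjusted p 0.0872). The smooth muscle and pericyte list had 1 member higher without vehicle rat 2 or without Mix rat 1. Its median log2 was 0.42 in the main fit and -0.07 without vehicle rats 1 and 2. Its most abundant members did not pass, with Acta2 at log2 0.35 and Mylk at 0.49. Endothelial markers stayed near the share of all genes, with 1 of 17 higher (5.88%) and none lower. The higher marker was Cdh5 (log2 1.22 ± 0.34, adjusted p = 0.0411), with overlap between groups. Its call was lost without vehicle rat 1 or 3, BPA rat 2 or 3 or Mix rat 1 or 3 (largest adjusted p 0.156).

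Of 39 matrix genes 2 were higher (5.13%) and 4 lower (10.3%), against 4.13% and 4.99% of all genes. Mmp2, a gelatinase, had 70.1, 116 and 136 CPM in vehicle and 43.0, 37.4 and 31.5 in Mix (log2 -1.52 ± 0.23, adjusted p = 0.00354). The protease Adamts5 rose from 0.603, 3.68 and 3.75 to 14.5, 9.11 and 18.8 (log2 2.41 ± 0.54, adjusted p = 0.018). Mmp2 passed whichever library was left out, and Adamts5 did not without vehicle rat 2 or Mix rat 1 or 3 (largest adjusted p 0.0622). The fibrillar collagens Col1a1 and Col3a1 had log2 values of -0.22 and -0.07 and did not pass.

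Most macrophage markers did not pass the threshold. Of 17 macrophage markers 2 fell and none rose, and their summed level was 1758, 1779 and 1901 CPM of all counts in vehicle and 1104, 2076 and 1054 in Mix. Mix rat 2 alone lay above the vehicle rats. Without it 6 of the 17 fell and the median log2 was -0.62, against -0.28 with it, and none passed without vehicle rats 1 and 2. Aif1, a calcium-binding protein of macrophages, had 52.9, 76.0 and 62.8 in vehicle and 23.1, 35.8 and 26.0 in Mix (log2 -1.17 ± 0.20, adjusted p = 0.00607). The other marker that fell, Tyrobp, passed in 3 of 9 fits with a library left out (largest adjusted p 0.159). Clec12a, an inhibitory lectin receptor of myeloid cells, had 41.5, 42.9 and 32.0 and 7.14, 5.94 and 6.71, a fall to 0.170 of the vehicle level (log2 -2.55 ± 0.26, adjusted p = 0.000547). The interleukin 1 receptor antagonist Il1rn fell from 69.5, 63.1 and 106 to 30.6, 18.5 and 35.6 (log2 -1.49 ± 0.29, adjusted p = 0.0101). Clec12a and Il1rn are not among the 17 markers. Clec12a was named as 1 of the 10 largest falls, and Il1rn as a passing member of the chemokines and cytokines, of which 2 of 20 fell. In Aif1, Clec12a and Il1rn the groups did not overlap, and each passed whichever library was left out. Common macrophage genes such as Lyz2 (log2 -0.24), Cd68 (0.30) and Csf1r (0.61) did not pass.

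By size, the 10 largest rises and falls with separated groups included several genes outside these lists. Myh6, the alpha myosin heavy chain best known from heart, went from 0.603, 0 and 0.163 CPM in vehicle to 7.79, 16.8 and 15.2 in Mix (log2 5.51 ± 0.65, adjusted p = 0.00116). Cthrc1, a secreted collagen-associated protein, fell from 30.3, 42.5 and 42.3 to 2.99, 3.96 and 1.92 (log2 -3.68 ± 0.51, adjusted p = 0.00216). The neurofilament Nefh fell from 14.6, 19.5 and 25.9 to 2.08, 2.77 and 2.39 (log2 -3.04 ± 0.45, adjusted p = 0.00298), and the opioid precursor Penk from 49.1, 41.0 and 57.1 to 10.3, 7.26 and 6.87 (log2 -2.59 ± 0.46, adjusted p = 0.0072). These 4 passed in every fit with a library left out. Serpina11, a serine protease inhibitor, fell from 35.7, 47.1 and 35.9 to 2.08, 1.19 and 0.639 (log2 -4.88 ± 0.80, adjusted p = 0.00482) and was high in all 3 vehicle rats. Obp3, a lipocalin, had the largest fall of those named, from 31.4, 83.9 and 0.979 to 0.649, 0.132 and 0.319 (log2 -6.63 ± 1.28, adjusted p = 0.0101). It was high in vehicle rats 1 and 2, the libraries with the most liver and testis transcripts. Against the same vehicle libraries BPA passed in each of these genes too. The BPA log2 values were 5.79 for Myh6, -3.93 for Cthrc1, -2.85 for Nefh, -2.22 for Penk, -3.08 for Serpina11 and -5.13 for Obp3. None of these genes passed the test between Mix and BPA.

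Transcripts of other organs moved with the groups as follows. Of 14 tested testis germ cell transcripts 5 fell and none rose, with a median log2 of -4.24. Crisp2, a sperm protein, had 26.1, 54.5 and 0.163 CPM in vehicle and 0, 1.32 and 0 in Mix (log2 -5.82 ± 1.52, adjusted p = 0.0326), lost without vehicle rat 1 or 2 or Mix rat 1 or 3 (largest adjusted p 0.143). Tnp1, a transition protein of spermatids, had 222, 527 and 0.490 and 2.34, 23.9 and 2.39 and did not pass (log2 -4.69 ± 1.51, adjusted p = 0.071). Vehicle rats 1 and 2 were high and vehicle rat 3 lay within or below the range of the Mix rats in both genes. Without vehicle rats 1 and 2 the median of the list was 3.17 and none of its members passed. Of 12 hepatocyte transcripts 2 fell, Rup2 and transferrin (Tf), with a list median of -1.89. Rup2 passed in 3 of 9 fits with a library left out (largest adjusted p 0.232) and Tf in all 9. The median was -3.91 without Mix rat 1, and 2.21 with none past the threshold without vehicle rats 1 and 2. Oviduct and ciliated cell markers summed to 34.1, 43.1 and 27.0 CPM in vehicle and 42.8, 27.1 and 168 in Mix, and none of 11 passed. How far these transcripts bear on other results was not tested. In Cyp17a1, Lhcgr, Cyp19a1, Hsd17b7, Prlr, Igfbp4 and Mt1a the groups did not overlap. Vehicle rat 3 therefore necessarily lay on the side of vehicle rats 1 and 2 in these genes, which does not answer that question.

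**Figure D4:**
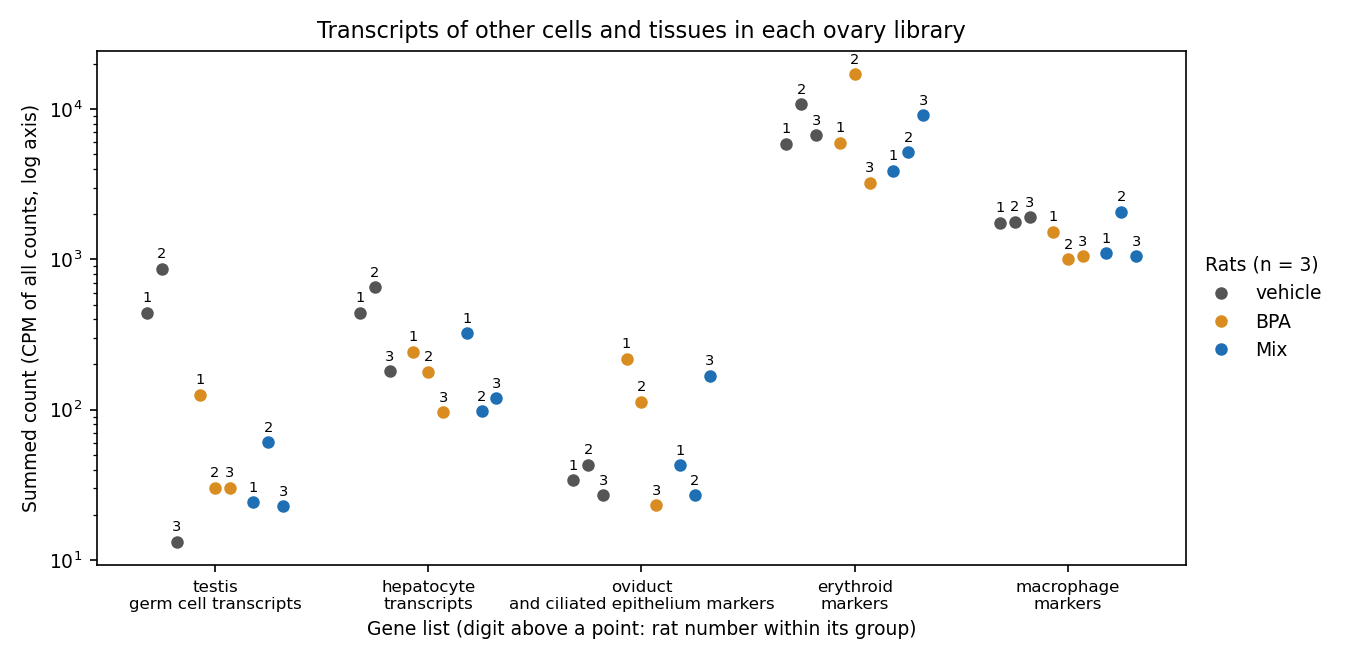
Summed counts of 5 lists of other cells and tissues (x axis) in each ovary library, as CPM of all counts on a log axis, with the rat number above each point. Vehicle rats 1 and 2 reach 443 and 867 in testis germ cell transcripts against 13.3 in vehicle rat 3 and 22.7 to 60.8 in Mix, while erythroid and macrophage sums overlap between groups.

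The mixture and bisphenol A alone were compared directly at equal summed dose, in the same fit. Of 10871 genes, 23 differed (0.212%), 7 higher in Mix (0.0644%) and 16 lower (0.147%), and 1304 had an unadjusted p below 0.05. DESeq2 called 287. Single libraries decided this number. In edgeR it was 0 without Mix rat 1, 1 without BPA rat 3 (not among the 23), 2 without BPA rat 2 (1 of them among the 23), 15 without vehicle rat 1 (14 among the 23) and 38 without Mix rat 2 (18 among the 23). The largest falls and rises were named by a rule of size, and the plot of Mix against BPA shows them.

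Amh had 41.8, 34.1 and 37.1 CPM in the BPA rats against 15.2, 12.3 and 16.8 in Mix and 14.8, 13.4 and 12.2 in vehicle, so Mix lay with vehicle and below BPA (Mix minus BPA log2 -1.36 ± 0.19, adjusted p = 0.0176). Its receptor Amhr2 had 68.7, 72.2 and 88.1 in BPA, 22.6, 31.6 and 31.6 in Mix and 49.8, 66.4 and 41.4 in vehicle, the lowest values being those of Mix (log2 -1.42 ± 0.20, adjusted p = 0.0176). Star had 907, 838 and 663 in BPA, 2194, 1532 and 1696 in Mix and 1721, 1396 and 1382 in vehicle, the lowest being those of BPA (log2 1.17 ± 0.18, adjusted p = 0.0272). Runx2 differed too, at 81.4, 88.8 and 99.2 in BPA, below all Mix rats (log2 1.03 ± 0.18, adjusted p = 0.0413). So did Cdkn1b, at 111.5, 112.2 and 119.9 in BPA (log2 0.73 ± 0.13, adjusted p = 0.0393), and Cited2, at 403, 383 and 382 (log2 -0.89 ± 0.15, adjusted p = 0.0311). The other genes past this test that were named by size were Tox2, Pcdha11 and Hdac4, lower in Mix (log2 -1.81, -1.47 and -1.22), and Scgb1a1, Sncg, Crebl2 and Rmdn2, higher in Mix (log2 1.75, 1.55, 1.37 and 1.17).

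**Figure D5:**
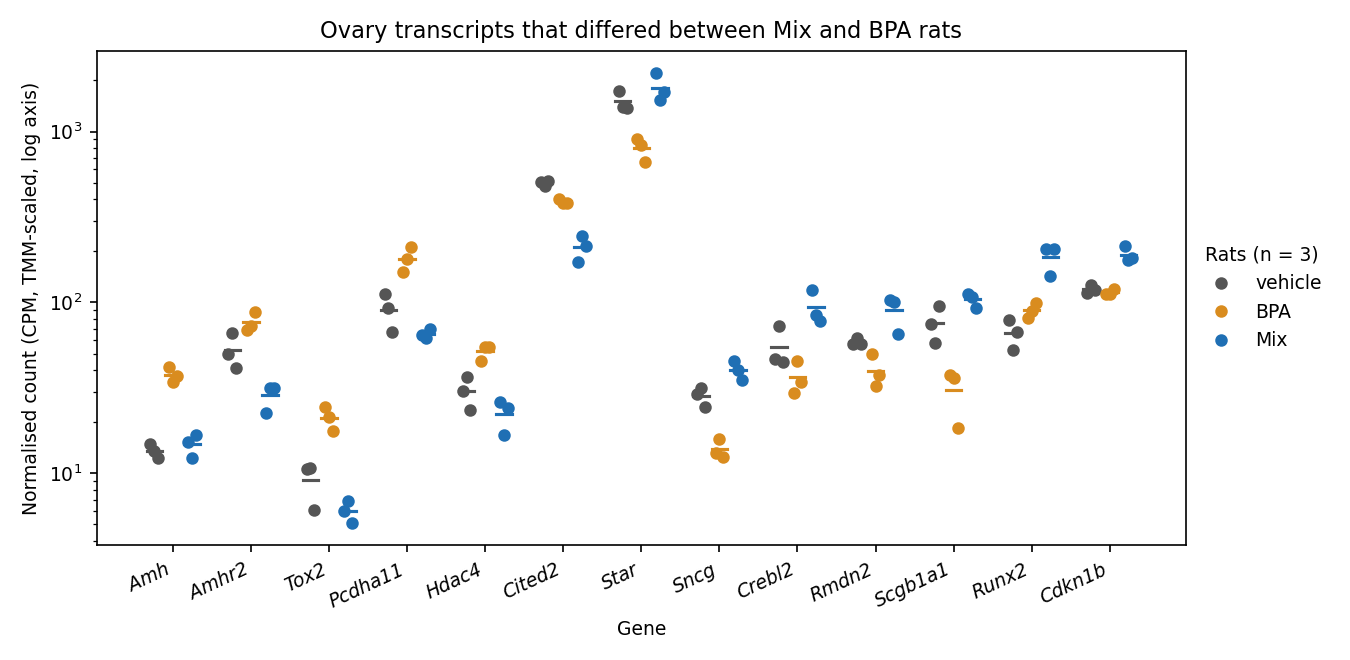
Normalised counts (CPM, log axis) of 13 genes that differed between Mix and BPA ovaries (x axis), each point 1 rat and each bar the mean of 3. Amh is at 34.1 to 41.8 in BPA against 12.3 to 16.8 in Mix and 12.2 to 14.8 in vehicle, and Star at 663 to 907 in BPA against 1532 to 2194 in Mix.

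Of the changes against vehicle, those of Cyp17a1, Lhcgr, Cyp19a1 and Igfbp4 did not pass the test between Mix and BPA. Those of Amhr2, Runx2, Cdkn1b and Cited2 did, as given above. Cyp17a1 had 80.4, 229 and 94.6 CPM in BPA, with a Mix minus BPA difference of log2 0.35 ± 0.39 (95% interval -0.49 to 1.20, adjusted p = 0.79). Lhcgr had 50.1, 35.5 and 24.9 in BPA and a difference of -0.01 ± 0.38 (interval -0.83 to 0.81, adjusted p = 0.999). Cyp19a1 had 29.4, 17.7 and 18.4 and a difference of 0.63 ± 0.38 (interval -0.19 to 1.45, adjusted p = 0.548). The intervals of Cyp17a1 and Cyp19a1 reach past 2-fold and that of Lhcgr comes close to it, so these rats do not show that the exposures act alike. Igfbp4, at 131, 121 and 115 in BPA, was bounded more closely, with a difference of 0.14 ± 0.12 (interval -0.12 to 0.41, adjusted p = 0.711). Both comparisons with vehicle use the same 3 vehicle libraries, so a chance feature of those libraries enters both. Against vehicle, BPA had 738 genes past the threshold (6.79%), 316 higher (2.91%) and 422 lower (3.88%). Side by side, ribosomal proteins had 34 of 79 lower in Mix and 5 in BPA, with medians of -0.66 and -0.37, and respiratory subunits 25 of 73 and 18, with medians of -0.43 and -0.44. Cholesterol biosynthesis had 6 of 23 higher in Mix and 1 in BPA, with medians of 0.49 and -0.11. Of 18 preovulatory LH genes 5 were lower and 1 higher in Mix, against 1 lower and 3 higher in BPA. Their medians lay on opposite sides of 0, at -0.19 in Mix and 0.24 in BPA. No gene of these 4 lists passed the direct test between Mix and BPA.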

How the data were processed

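Per the labels, total RNA was extracted with TRIzol and a QuantSeq 3′ kit gave the libraries. Per the submitters' processing notes, FastQC, Bowtie2, bedtools and edgeR were used with the rn6 build, and versions, strand and the treatment of reads with several matches are not given in the sources used here. The authors deposited raw read counts per gene for 70 libraries in 1 table of 17048 rows. The 9 ovary libraries were fitted together with edgeR 4.0.16 in R 4.3.3 (filterByExpr, TMM, quasi-likelihood test, Benjamini-Hochberg adjustment over 10871 genes, threshold 0.05), so that the 3 groups share 1 estimate of the spread. The script was tested on simulated data. The labels do not say whether rats of a group came from separate litters, so p-values measure the spread between these animals.

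The comparison, gene lists and rules were chosen with earlier results of these data known. Named genes were the 10 largest rises and falls among called genes with separated groups and an average log2 CPM no lower than 2, up to 4 passing members of each list (the 2 with the smallest p where none passed), the 2 most abundant members of lists of other cells, 5 genes in each direction for Mix against BPA, and a fixed set of ovary genes. The rankings by size took genes with a gene symbol and left out those with only an identifier. Other list members are given as log2 values. Foxl2 is not among the table's rows, and Gdf9 and Bmp15 held 25 and 0 counts over the 9 libraries. Alternatives were DESeq2 1.42.0, other size factors, other count filters, ribosomal RNA share as a covariate or its rows left out, a fit of the 2 groups alone, a replicate block and leaving out each library. Leaving out vehicle rats 1 and 2 together was chosen after seeing the data. RefSeq promoters were matched by symbol. Some members of the lists are counted in the lists' totals but are not reported here by name.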

Additional observations from a re-analysis of the deposited data

How the results depend on the processing

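The number of genes that differed between Mix and vehicle was 991, and 1507 with DESeq2 and 616 with the ribosomal RNA share as a covariate. With 1 library left out it ran from 263 to 1177, and the lowest values, 263, 275 and 351, came without Mix rat 1, vehicle rat 2 and Mix rat 3. It was 164 without both vehicle rats 1 and 2, an alternative chosen after seeing the data that leaves 1 vehicle library, assumed to vary like the other groups. Other size factors, count filters, the ribosomal RNA rows left out and the 2 groups alone kept the count between 811 and 1098. For Mix against BPA the count was 23, against 287 with DESeq2, 85 without a filter on low counts, 11 with the covariate, 9 with the 2 groups alone and 9 without vehicle rats 1 and 2. Leaving out 1 library gave 0 to 38. The causes of these differences were not tested.

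A replicate block, with the replicate number as a term, gave 1172 genes for Mix against vehicle and 27 for Mix against BPA. Same-numbered rats showed no clear common deviation. Of 9 libraries, 4 correlated best with their own number, and correlations between same-numbered rats ran from -0.10 to 0.12. So few libraries cannot exclude a pairing by number.

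Of the 120 named genes past the threshold, 5 missed it with DESeq2, 9 with the block and 38 with the covariate, and 31 still passed without vehicle rats 1 and 2. No fit that left out 1 library turned the direction of a named gene that had passed. Without vehicle rats 1 and 2 the log2 fold change turned positive for 4 of them, Rup2 (2.09), Crisp2 (1.36), Odf1 (5.52) and Oaz3 (6.20), none of which then passed. Depth limits the precision of genes with few counts.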

Other observations

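Some genes outside the comparisons above are given as values. Among circadian clock genes 2 of 13 tested rose and none fell, with Clock at 32.3, 36.8 and 27.7 CPM in vehicle and 58.0, 49.6 and 53.0 in Mix (log2 0.73 ± 0.16, adjusted p = 0.0166, edgeR) and Nr1d2 at 16.7, 15.1 and 19.4 and 29.7, 27.6 and 44.4 (log2 0.98 ± 0.24, adjusted p = 0.0254). Clock missed the threshold without vehicle rat 3 or Mix rat 1 or 3 (largest adjusted p 0.0688), and Nr1d2 without vehicle rat 1 or 2 or Mix rat 1 or 3 (largest 0.109). In the Notch pathway the ligand Jag1 stood at 9.95, 8.10 and 12.6 in vehicle and 25.7, 18.6 and 23.5 in Mix (log2 1.14 ± 0.27, adjusted p = 0.0205) and the target Hes1 at 43.1, 57.4 and 47.5 and 106, 65.9 and 109 (log2 0.92 ± 0.19, adjusted p = 0.0133). Jag1 was lost without vehicle rat 1 or 2 or Mix rat 1 or 3, and Hes1 without Mix rat 1 or 3 (largest adjusted p 0.0889 and 0.0584).

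Of 16 heat shock proteins and 20 immediate early genes, 2 each fell and none rose, with median log2 values of -0.31 and 0.09. The small heat shock protein Hspb1 fell from 676, 629 and 487 to 263, 186 and 149.9 (log2 -1.58 ± 0.34, adjusted p = 0.0156), though not without vehicle rat 2 or Mix rat 3 (largest adjusted p 0.066), and the immediate early gene Ier3 from 185, 219 and 276 to 119, 95.6 and 127.4 (log2 -0.99 ± 0.17, adjusted p = 0.00607), whichever library was left out. Complement component C4b rose from 30.0, 30.6 and 24.0 to 83.3, 43.3 and 58.0 (log2 1.13 ± 0.22, adjusted p = 0.0114), also in every such fit, and its near-identical copy C4a may share its reads. Ncam1, an adhesion molecule of nerve and of steroid cells, rose from 10.3, 11.0 and 21.4 to 44.7, 25.9 and 39.3 (log2 1.36 ± 0.29, adjusted p = 0.015, lost without vehicle rat 2 or Mix rat 1 or 3, largest adjusted p 0.0719). Of 991 genes past the threshold for Mix against vehicle, 970 had groups that did not overlap, against 29.0% of all genes tested. The test selects on the same values, so this separation is no further support for the calls.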
